A study of Mus musculus with 12 samples.

Results

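Transforming growth factor beta (TGF-beta) signalling was followed, from mouse embryonic fibroblasts (MEFs) to the iPSCs (induced pluripotent stem cells) made from them, by 9 genes, chosen by symbol from the 24098 rows of a table of gene expression. They were the ligands Tgfb1, Tgfb2, Tgfb3 and Inhba, the receptors Tgfbr1 and Tgfbr2, the latency proteins Ltbp1 and Ltbp2, and the inhibitor Smad7. The choice was made with earlier results of these data known. All 9 had an expression of at least 1 FPKM (fragments normalised to transcript length and to the number of mapped fragments) in at least 1 library, as did 14178 genes of the table. MEFs came from embryos with GFP tagged to Oct4. They were infected with pMXs retroviruses for Sox2, Klf4, Oct4 and c-Myc (OSKM), and polyA RNA was sequenced in 12 libraries, 1 for each condition.

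D0 were MEFs at day 0, marked WT in the labels, which do not mention the reporter, and D3 were unsorted cells of day 3 of OSKM induction. D6T- and D9T- were the Thy-1- fractions of days 6 and 9, and D12S+ and D16S+ the SSEA-1+ fractions of days 12 and 16. The study treats these 4 as the successful route, and their counterparts D6T+, D9T+, D12S- and D16S- as the unsuccessful route. Thy-1 is a surface protein of fibroblasts and SSEA-1 a surface carbohydrate of mouse pluripotent cells. Because the sorting marker changed between days 9 and 12, day and marker cannot be told apart across that step. The end points were iPSCs and the ESD3 line of mouse embryonic stem cells (mESCs). Per the labels, MEFs were grown with 10% fetal bovine serum, while reprogramming cells, iPSCs and mESCs were kept in FF medium with serum replacement, LIF, ascorbic acid, basic FGF and CHIR99021. The study's methods also name serum-containing and other media for these cells, so the medium of a given library is known from the labels alone. By the labels, differences from D0 hold a change of medium as well as the factors, which cannot be told apart. With 1 library per condition no difference has a replicate check and none was tested.

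As background, TGF-beta proteins are secreted in a latent form, folded with their own propeptide and tethered to the matrix by latent TGF-beta binding proteins. Once freed, they bind the type II receptor TGFBR2, which recruits and phosphorylates the type I receptor TGFBR1. This receptor phosphorylates SMAD2 and SMAD3, which join SMAD4 in the nucleus. Activins, dimers of inhibin beta chains, reach the same SMADs through ACVR2A or ACVR2B and ACVR1B. In fibroblasts the pathway drives matrix and contractile genes, and SMAD7, itself a target, blocks the receptors. Inhibitors of TGFBR1 are known to favour reprogramming of fibroblasts.

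Sequences around the start sites are shown for ligands whose patterns differed across the libraries. They are RefSeq promoters on the GRCm38.p6 build, a later build than the mm9 of the expression table, and run from 250 bases before to 50 bases after the start. Of the 9 genes, 7 had an entry, with 9 promoters among them. Both strands were searched for AP-1 sites (TGANTCA), the Smad palindrome GTCTAGAC, the shorter Smad motif CAGACA, GC boxes (GGGCGG) and TATAAA. Capitals mark the matches on either strand.
Tgfb1 promoter, chr7:25686752-25687051, plus strand: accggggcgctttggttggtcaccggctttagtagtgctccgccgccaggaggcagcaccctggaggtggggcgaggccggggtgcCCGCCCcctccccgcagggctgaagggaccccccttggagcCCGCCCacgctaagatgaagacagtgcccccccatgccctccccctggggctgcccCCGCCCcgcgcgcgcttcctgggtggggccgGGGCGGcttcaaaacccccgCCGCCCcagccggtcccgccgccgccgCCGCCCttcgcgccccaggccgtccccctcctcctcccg
Tgfb2 promoter, chr1:186705940-186706239, minus strand: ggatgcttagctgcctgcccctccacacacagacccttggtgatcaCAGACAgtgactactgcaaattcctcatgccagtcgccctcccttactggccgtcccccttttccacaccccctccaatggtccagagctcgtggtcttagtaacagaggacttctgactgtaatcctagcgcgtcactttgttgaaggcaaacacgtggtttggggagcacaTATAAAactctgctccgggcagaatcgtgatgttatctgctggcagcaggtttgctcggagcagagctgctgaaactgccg
Inhba promoter, chr13:16011601-16011900, plus strand: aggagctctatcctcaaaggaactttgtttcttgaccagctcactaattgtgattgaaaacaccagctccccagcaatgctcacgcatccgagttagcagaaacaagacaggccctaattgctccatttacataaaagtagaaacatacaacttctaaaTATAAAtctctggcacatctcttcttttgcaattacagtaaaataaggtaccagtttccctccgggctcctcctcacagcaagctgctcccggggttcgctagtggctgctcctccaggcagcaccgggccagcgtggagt

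The Tgfb1 window held 6 GC boxes and none of the other motifs, and its GC content was 77%. The Tgfb2 window had a GC content of 54.3%, with TATAAA at position -31 and CAGACA at -204 from the start site. In the Inhba window, at 47.7% GC, TATAAA stood at -91. Among all 32851 promoters of the table, 35.7% held a GC box, 13.6% TATAAA, 21.0% CAGACA, 7.81% the AP-1 motif and 0.213% the palindrome, and the median GC content was 52.7%. Neither the AP-1 motif nor the palindrome was found in any of the 9 promoters searched, which did not include Smad7. A match is a description of letters and not a binding site.

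Tgfb1 (mm9 chromosome 7, 26472021 to 26490096, plus strand) encodes the ligand most often linked to fibrosis and wound repair. It was at 72.5 FPKM in D0 and 25.2 FPKM in D3. Along the successful route its level was 4.89 FPKM in D6T-, 3.08 in D9T-, 7.59 in D12S+ and 4.89 in D16S+, and along the unsuccessful route 28.8 FPKM in D6T+, 15.6 in D9T+, 10.5 in D12S- and 19.1 in D16S-. The iPSCs were at 8.24 FPKM and the mESCs at 7.58 FPKM. D0 was thus the highest library and D9T- the lowest, and each of the 4 successful-route libraries was below each of the 4 unsuccessful-route libraries. The routes also did not overlap for Tgfb3, Inhba, Tgfbr2 and Ltbp2 below. The share of all genes for which the routes do not overlap was not computed, so the pattern cannot be called particular to these genes. The libraries of a route differ in day and sorting marker and are not replicates. For none of the 9 genes were the cuffdiff intervals of a successful-route and an unsuccessful-route library apart. On the log2(FPKM + 1) scale, used for all differences below, the difference was -1.49 from D0 to D3 and -2.15 from D3 to D6T-. From D9T- to D12S+ it was 1.07.

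Tgfb3 (chromosome 12, 87397694 to 87419991, minus strand), a ligand known for its part in palate fusion, was at 25.6 FPKM in D0 and 16.98 FPKM in D3. Successful-route levels were 5.44 FPKM in D6T-, 4.20 in D9T-, 3.03 in D12S+ and 0.704 in D16S+, against 12.1 FPKM in D6T+, 9.21 in D9T+, 7.19 in D12S- and 6.73 in D16S-. The iPSCs had 2.41 FPKM and the mESCs 0.178 FPKM. The level was lower at each later day on both routes, and the routes did not overlap.

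Tgfb2 (chromosome 1, 188447065 to 188529871, minus strand), a ligand with roles in heart and eye development, stayed low in all libraries. It was at 2.41 FPKM in D0 and 2.95 FPKM in D3, which was its highest level. The successful route had 1.498 FPKM in D6T-, 2.57 in D9T-, 0.876 in D12S+ and 0.545 in D16S+, and the unsuccessful route 1.97 FPKM in D6T+, 2.89 in D9T+, 1.84 in D12S- and 2.23 in D16S-. The iPSCs were at 2.75 FPKM and the mESCs, the lowest library, at 0.194 FPKM. Unlike Tgfb1 and Tgfb3, the routes overlapped, through D9T-.

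Since FPKM is scaled to transcript length, the levels of the 3 ligands can be set side by side within a library. Their summed FPKM was 100.6 in D0, 9.84 in D9T-, 6.14 in D16S+ and 28.0 in D16S-. Tgfb1 made up 72.1% of the sum in D0, 31.3% in D9T- and 79.6% in D16S+. Tgfb3 was the most abundant of the 3 in D6T- with 46.0% and in D9T- with 42.6%, the only libraries of the 12 where Tgfb1 was not. The levels of Tgfb3 and Tgfb1 were close there, at 5.44 and 4.89 FPKM in D6T- and 4.20 and 3.08 FPKM in D9T-. Their intervals overlapped and reached 0 in both libraries, so this order is uncertain. Tgfb2 reached 26.1% in D9T- and 20.5% in iPSCs, against 2.39% in D0. In mESCs, Tgfb1 accounted for 95.3%.

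**Figure D1:**
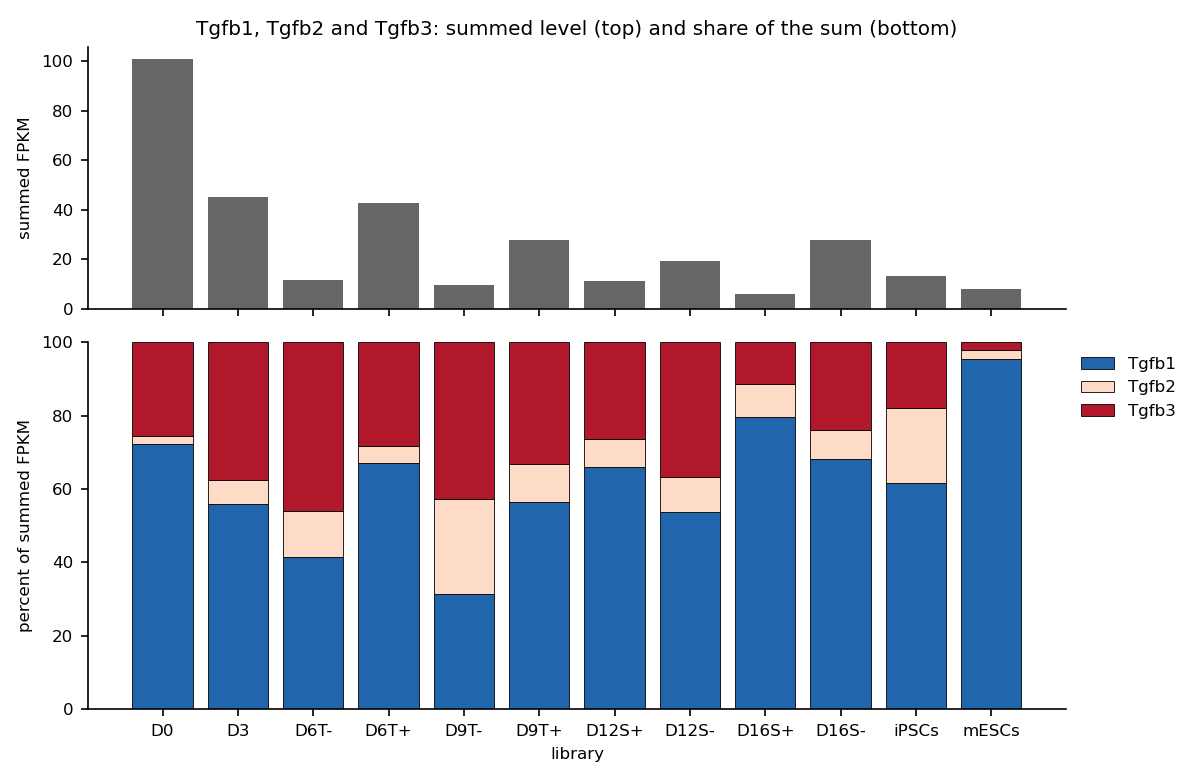
Summed level of Tgfb1, Tgfb2 and Tgfb3 in FPKM (top bars) and the percent of that sum from each ligand (stacked bars, bottom) in the 12 libraries, 1 library per condition. The sum is highest in D0 at 100.6 FPKM, and the share of Tgfb1 is lowest in D9T- at 31.3%.

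Inhba (chromosome 13, 16103684 to 16119044, plus strand) encodes the inhibin beta A chain, which pairs with itself to form activin A. It was at 37.0 FPKM in D0 and at its highest, 74.1 FPKM, in D3. The successful route was at 4.54 FPKM in D6T-, 6.18 in D9T-, 6.83 in D12S+ and 2.33 in D16S+, and the unsuccessful route at 25.6 FPKM in D6T+, 39.2 in D9T+, 14.7 in D12S- and 28.7 in D16S-. In the end points it was at 1.71 (iPSCs) and 0.0324 FPKM (mESCs). The difference from D3 to D6T- was -3.76, the largest step between neighbouring libraries of either route for any of the 9 genes. The 2 routes did not overlap.

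Tgfbr2 (chromosome 9, 115993415 to 116084383, minus strand), the type II receptor that binds the ligand first, had the highest level of the 9 genes in D0, at 129.7 FPKM. D3 followed with 56.5 FPKM. The successful route had 45.0 FPKM in D6T-, 61.2 in D9T-, 29.8 in D12S+ and 9.23 in D16S+, and the unsuccessful route 155.7 FPKM in D6T+, 117 in D9T+, 66.1 in D12S- and 62.8 in D16S-. The iPSCs were at 3.26 FPKM and the mESCs at 1.45 FPKM. D6T+ was the highest library, and the lowest value of the unsuccessful route (62.8 FPKM in D16S-) lay close to the highest of the successful route (61.2 FPKM in D9T-). On the successful route the difference was -0.32 from D3 to D6T-, -1.01 from D9T- to D12S+ and -1.59 from D12S+ to D16S+.

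Tgfbr1 (chromosome 4, 47366094 to 47427803, plus strand), the kinase that signals to the SMADs, lay between 0.918 and 2.10 FPKM in the 12 libraries. It was at 1.43 FPKM in D0, 1.55 in D3, 1.53 in D6T-, 2.10 in D6T+, 1.99 in D9T- and 1.91 in D9T+. The later libraries had 0.918 FPKM in D12S+, 1.21 in D12S-, 1.42 in D16S+ and 0.971 in D16S-, with 1.32 in iPSCs and 1.16 in mESCs. None of the 9 comparisons placed Tgfbr1 past 2-fold. Tgfbr2 was 91.0 times as abundant as Tgfbr1 in D0, 6.49 times in D16S+, 64.7 times in D16S-, 2.47 times in iPSCs and 1.26 times in mESCs.

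Ltbp1 (chromosome 17, 75404908 to 75791852, plus strand) encodes a matrix protein that binds and stores latent TGF-beta. It was at 67.5 FPKM in D0 and 35.7 FPKM in D3. In the Thy-1 sorts the fractions were close, with 50.4 FPKM in D6T- against 58.6 in D6T+, and 72.8 in D9T- against 70.1 in D9T+. In the SSEA-1 sorts they differed more, with 18.98 FPKM in D12S+ against 53.6 in D12S-, and 4.58 in D16S+ against 35.8 in D16S-. The iPSCs were at 1.61 FPKM and the mESCs at 4.38 FPKM. Its highest library was thus D9T-, and both SSEA-1+ fractions lay below both Thy-1- fractions. RefSeq lists 2 promoters for Ltbp1 and for Tgfbr1, and a gene-level value does not separate their transcripts.

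Ltbp2 (chromosome 12, 86124162 to 86217482, minus strand) encodes a related protein of elastic fibres, which does not bind latent TGF-beta itself. It was at 23.8 FPKM in D0 and 12.8 FPKM in D3. Already in D6T- it was at 1.03 FPKM, followed by 0.527 in D9T-, 1.06 in D12S+ and 0.391 in D16S+, while the unsuccessful route had 8.62 FPKM in D6T+, 5.46 in D9T+, 2.85 in D12S- and 3.02 in D16S-. The iPSCs were at 0.868 FPKM and the mESCs at 0.735 FPKM. On the log2(FPKM + 1) scale, Ltbp2 was past 2-fold between the fractions on days 6, 9 and 16, and Ltbp1 on days 12 and 16. Ltbp2 on day 12, at 1.06 against 2.85 FPKM, stood at -0.90 on this scale, which understates low levels. The difference from D3 to D6T- was 0.48 for Ltbp1 and -2.76 for Ltbp2, and that from D9T- to D12S+ was -1.88 for Ltbp1 and 0.43 for Ltbp2.

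Smad7 (chromosome 18, plus strand) encodes an inhibitory SMAD. It was at 17.5 FPKM in D0 and 11.3 FPKM in D3. The successful route had 2.29 FPKM in D6T-, 2.64 in D9T-, 10.9 in D12S+ and 13.01 in D16S+, and the unsuccessful route 5.50 FPKM in D6T+, 13.1 in D9T+, 6.25 in D12S- and 10.2 in D16S-. The iPSCs were at 6.46 FPKM and the mESCs at 12.2 FPKM. The Thy-1- fractions were the lowest of the 12 libraries, and the SSEA-1+ fractions exceeded the SSEA-1- fractions of their day.

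**Figure D2:**
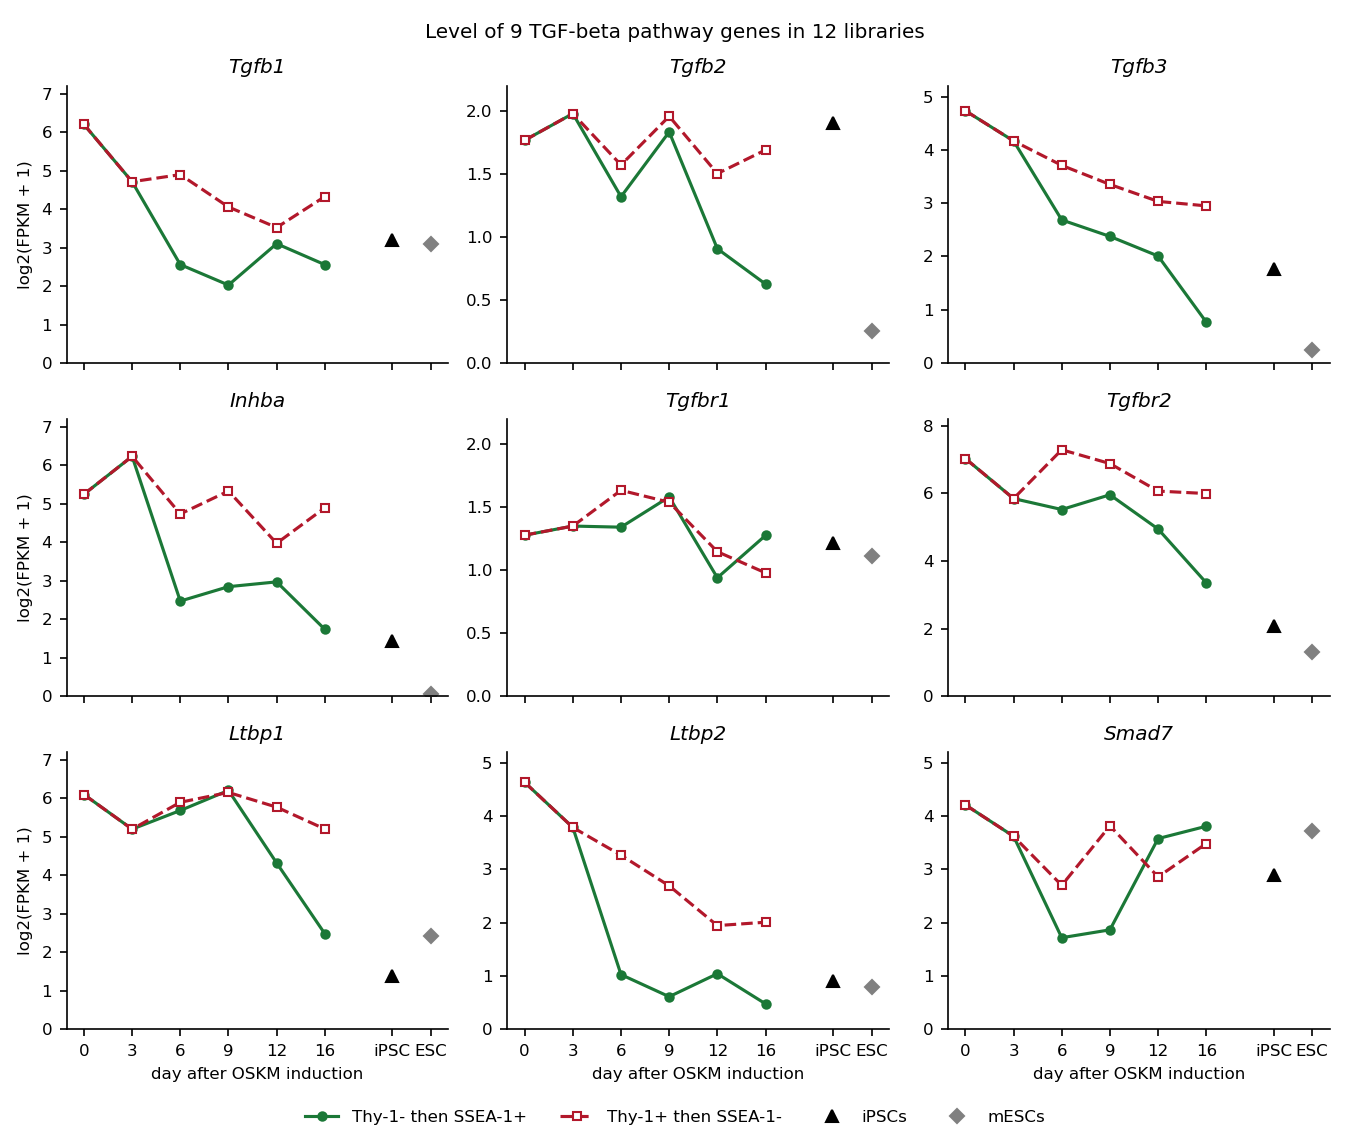
Level of each of the 9 genes as log2(FPKM + 1) against day, for the successful route (filled circles, Thy-1- then SSEA-1+), the unsuccessful route (open squares, Thy-1+ then SSEA-1-), iPSCs (triangle) and mESCs (diamond), 1 library per point and a separate vertical axis per gene. D0 and D3 are shared by both routes, Tgfbr1 stays between 0.918 and 2.10 FPKM, and Ltbp1 separates the routes on days 12 and 16.

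Each FPKM came with an interval that cuffdiff modelled without replicates, and these intervals were wide. In the 9 comparisons below, the intervals of the 9 genes overlapped in all 81 pairs of values. Over all pairs of libraries, 66 for each gene and 594 for the 9 genes, they were apart in 4. Each was against mESCs: Tgfb3 in D0, Inhba in D3 and in D9T+, and Tgfbr2 in D12S-. The interval of Tgfbr2 was 5.17 to 127 FPKM in D12S- and 0 to 3.82 FPKM in mESCs. Neighbours in the order of a gene's levels could therefore not be separated. For Tgfb1, Tgfb2, Tgfbr1, Ltbp1, Ltbp2 and Smad7, the intervals of the highest and lowest libraries overlapped as well.

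To follow the first days of induction, D3 was compared with D0. Of the 9 genes, 2 were at least 2-fold lower, Tgfb1 at -1.49 and Tgfbr2 at -1.18, where 8.67% of all 14178 genes were. None was at least 2-fold higher (5.76% of all genes), with Inhba next to the threshold at 0.98. The median difference of the 9 genes was -0.59 and that of all genes -0.02. When all libraries were brought to 1 common total FPKM, 1 gene was lower (Tgfb1) and 1 higher (Inhba). The 7 fibroblast markers Thy1, Col1a1, Col1a2, Col3a1, Pdgfra, Pdgfrb and Vim summed to 10753 FPKM in D0 and 5837 FPKM in D3. Of these, 6 were at least 2-fold lower in D3 (8.67% of all genes), with a median of -2.11 over the 7. Vim, the largest part of both sums, was at 3641 FPKM in D0 and 3905 FPKM in D3. The part of these markers in the differences above was not tested. In bulk samples, fewer cells of a type and less RNA per cell cannot be told apart.

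To compare cells on the 2 routes, the sorted fractions of each day were set side by side. On day 6, 5 of the 9 genes were at least 2-fold lower in D6T- than in D6T+ (9.47% of all genes) and none was higher (2.93%). Differences were -2.34 for Tgfb1, -2.26 for Inhba, -2.24 for Ltbp2, -1.77 for Tgfbr2 and -1.02 for Tgfb3, which was at -0.97 and no longer past the threshold after scaling to the same total FPKM. On day 9, 4 were at least 2-fold lower in D9T- than in D9T+ (6.45% of all genes), and again none was higher (1.81%). These were Inhba at -2.49, Ltbp2 at -2.08, Tgfb1 at -2.03 and Smad7 at -1.95, while Tgfbr2 was at -0.92. Smad7 on day 6 (2.29 against 5.50 FPKM) and Tgfb3 on day 9 (4.20 against 9.21 FPKM) were both at -0.98. They fell just short of the threshold on this scale, which understates low levels. Medians over the 9 genes were -1.02 on day 6 and -0.98 on day 9, beside 0.00 and 0.02 for all genes.

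On day 12, 4 of the 9 genes were at least 2-fold lower in D12S+ than in D12S- (3.03% of all genes) and none was higher (4.79%). Ltbp1 led with -1.45, followed by Tgfbr2 at -1.12, Tgfb3 at -1.03 and Inhba at -1.002. The last 2 were at the threshold, and 2 genes were past it once libraries were scaled to the same total FPKM. On day 16, 7 were at least 2-fold lower in D16S+ than in D16S- (15.2% of all genes) and none was higher (11.8%). The largest differences were -3.16 for Inhba, -2.72 for Ltbp1, -2.64 for Tgfbr2 and -2.18 for Tgfb3, and Smad7 and Tgfbr1 were at 0.32 and 0.30. Medians of the 9 genes were -0.90 on day 12 and -1.77 on day 16, with -0.01 and -0.02 for all genes.

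Fibroblast markers moved the same way in these sorts. Their sum was 1824 FPKM in D6T- and 5583 FPKM in D6T+, 1720 in D9T- and 4736 in D9T+, 1056 in D12S+ and 2771 in D12S-, and 220 in D16S+ and 2684 in D16S-. Of the 7 markers, 7 were at least 2-fold lower on day 6, 6 on day 9, 5 on day 12 and 7 on day 16. Thy1 is itself the sorted protein on days 6 and 9. How much of the difference in the TGF-beta genes goes with these markers was not tested. The leukocyte list summed to between 15.3 and 144.6 FPKM, with 144.6 FPKM in D16S- and 70.7 FPKM in D16S+. Its defining markers Ptprc and Emr1 were at or below 0.425 FPKM in all libraries, while Cd68 was at 9.05 FPKM in D0 and 115 FPKM in D16S-, and Csf1r at 1.55 and 19.9 FPKM. Csf1r (-1.45) and Cd14 (-1.91) were past 2-fold between the fractions of day 16, and their part in the differences of that day was not tested.

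**Figure D3:**
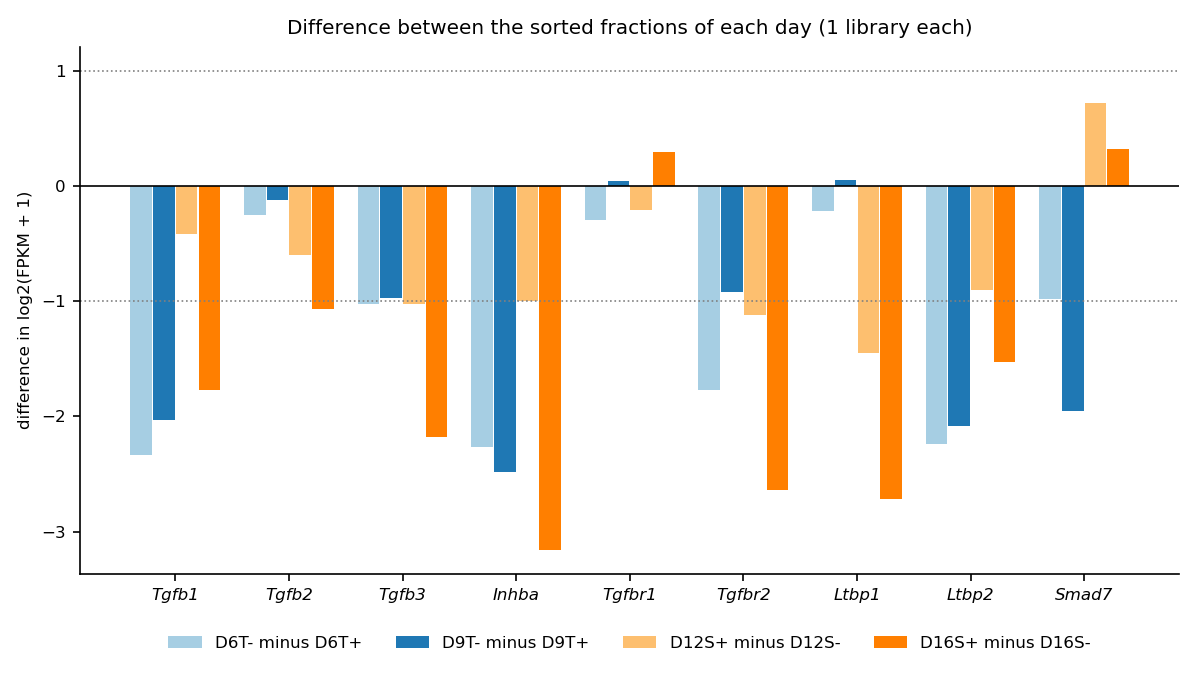
Difference in log2(FPKM + 1) between the sorted fractions of days 6, 9, 12 and 16 (4 bars per gene, successful minus unsuccessful, 1 library each), with dotted lines at 2-fold. Tgfb1, Tgfb3, Inhba, Tgfbr2 and Ltbp2 are below 0 on each day, Ltbp1 is past the lower line on days 12 and 16, and Smad7 changes side between days 9 and 12.

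Against the starting MEFs, 7 of the 9 genes were at least 2-fold lower in D16S+ (20.9% of all genes) and none was higher (20.0%). They were Ltbp2 at -4.16, Tgfb3 at -3.97, Tgfbr2 at -3.68, Tgfb1 at -3.64, Ltbp1 at -3.62, Inhba at -3.51 and Tgfb2 at -1.14. In D16S-, 4 were at least 2-fold lower than in D0 (11.4% of all genes) and none was higher (12.8%), namely Ltbp2 at -2.63, Tgfb1 at -1.87, Tgfb3 at -1.78 and Tgfbr2 at -1.03. Inhba, at -0.35, and Ltbp1, at -0.90, were within 2-fold of D0 in the unsuccessful fraction. The medians were -3.62 and -0.90 (all genes 0.05 and -0.00). These comparisons share D0, and the difference between D16S+ and D16S- is the one given above for day 16. Scaling to the same total FPKM moved the median of all genes by 0.30 and 0.19, and left 6 genes in D16S+, without Tgfb2 (-0.91), and 3 in D16S-, without Tgfbr2 (-0.73).

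In iPSCs, 7 of the 9 genes were at least 2-fold lower than in D0 (21.6% of all genes) and none was higher (18.7%). Tgfbr2 was at -4.94, Ltbp1 at -4.72, Inhba at -3.81, Ltbp2 at -3.73, Tgfb1 at -2.99, Tgfb3 at -2.97 and Smad7 at -1.31, with a median of -2.99 (all genes 0.03). Tgfb2, at 0.14, was near its level in MEFs. Compared with mESCs, 3 genes were at least 2-fold higher in iPSCs (6.79% of all genes), Tgfb2 by 1.65, Tgfb3 by 1.53 and Inhba by 1.39. Ltbp1 was at least 2-fold lower at -1.05 (7.41% of all genes), a call that was lost with libraries scaled to the same total FPKM. The fibroblast markers summed to 181 FPKM in iPSCs and 297 FPKM in mESCs. Of the 7, 1 was at least 2-fold higher in iPSCs (Col1a1, 1.29) and 3 lower, and their part in these differences was not tested. Whether the iPSCs were 1 clone is not given in the sources used here.

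The other genes of the pathway were described by 5 lists. Among 9 further receptors and co-receptors, 8 were kept, of which 4 were at least 2-fold lower (20.9% of all genes) and 1 higher (20.0%) in D16S+ than in D0. Tgfbr3, a co-receptor also called betaglycan, was at 27.8 FPKM in D0 and 0.953 in D16S+ (-3.88), and 6.29 FPKM in D16S-. Acvrl1, a type I receptor best known from endothelium, was at 33.0 and 1.697 FPKM (-3.66). Acvr1 was at 18.1 and 3.69 FPKM (-2.03), and the co-receptor Eng at 39.7 and 18.5 FPKM (-1.06), the smallest of the 4. The activin type II receptor Acvr2b went the other way, from 0.652 FPKM in D0 to 11.4 in D16S+ (2.90), 15.8 in iPSCs and 19.3 in mESCs. The activin type I receptor Acvr1b was at 7.44 FPKM in D0 and 13.2 in D16S+ (0.75), Acvr2a between 0.581 and 1.39 FPKM in the 12 libraries, and Acvr1c at or below 0.0103 FPKM. Bambi, a decoy receptor, was at 3.29 FPKM in D0, 1.24 in D16S+ (-0.94) and 0.861 in D16S- (-1.20).

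By FPKM, Tgfbr2 and the activin type II receptor Acvr2b thereby exchanged their order. There were 199 Tgfbr2 transcripts for each Acvr2b transcript in D0 by FPKM, 28.0 in D3, 9.20 in D6T- and 10.8 in D9T-. The ratio was 2.62 in D12S+, 0.812 in D16S+, 0.206 in iPSCs and 0.0753 in mESCs. On the unsuccessful route it was 80.9 in D6T+, 22.5 in D9T+, 11.04 in D12S- and 10.8 in D16S-. Acvr2b was not past 2-fold between the fractions of day 16 (0.86), where Tgfbr2 was at -2.64. In D16S+ the intervals overlapped, at 0 to 20.0 FPKM for Tgfbr2 and 0 to 26.4 FPKM for Acvr2b, as they did in iPSCs and mESCs. In D0 Acvr2b was low, at 0.652 FPKM with an interval of 0 to 2.15 FPKM, which makes the ratio there uncertain. Acvr2a, the other activin type II receptor, was below Tgfbr2 in all libraries. The pair of Tgfbr2 and Acvr2b was chosen after its values were seen.

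**Figure D4:**
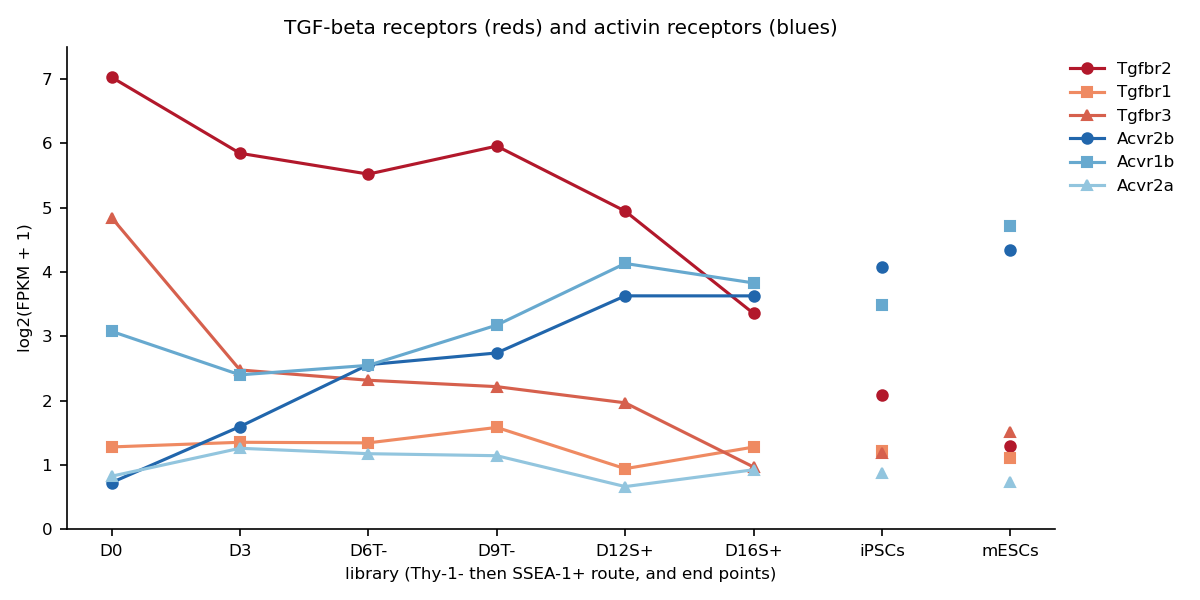
Level of Tgfbr2, Tgfbr1 and Tgfbr3 (reds) and of Acvr2b, Acvr1b and Acvr2a (blues) as log2(FPKM + 1) in D0, D3, the 4 successful-route libraries, iPSCs and mESCs, 1 library per point. Tgfbr2 is highest up to D12S+, and in D16S+ it lies at 9.23 FPKM below Acvr2b at 11.4 FPKM.

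Of 6 genes for other activin chains and antagonists, 4 were kept, while Inhbc and Inhbe stayed at or below 0.261 FPKM. Inhbb, the inhibin beta B chain, was at 117 FPKM in D0, 10.3 in D3, 5.72 in D6T- and 65.1 in D6T+, and at 2.72 in D16S+ against 17.8 in D16S-. It thus stood at -3.38 in D3 against D0, where Inhba stood at 0.98. Fst, follistatin, which binds and neutralises activin, was at 10.7 FPKM in D0, 34.0 in D3, 1.34 in D16S+ and 17.3 in D16S-. Its difference from D0 was 1.57 in D3, in the same direction as Inhba. Fstl3, a related antagonist, was at 20.2 FPKM in D0, 7.59 in D16S+ and 28.4 in D16S-. Inha, the alpha chain of inhibin, was at 5.29 FPKM in D0 and 0.679 in D3 (-1.91). Between the fractions of day 16, 3 of the 4 were at least 2-fold lower in D16S+ (15.2% of all genes), Fst at -2.97, Inhbb at -2.34 and Fstl3 at -1.77.

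Among 14 genes of latency and activation, 12 were kept. In D16S+, 10 of the 12 were at least 2-fold lower than in D16S- (15.2% of all genes), with a median of -2.55, and 10 were lower than in D0 (20.9%), with a median of -4.62. The largest differences from D0 were -9.07 for Bgn and -6.16 for Dcn, small proteoglycans that bind TGF-beta. Ltbp4, a relative of Ltbp1 with 17.1 FPKM in D0 and 43.3 FPKM in D16S+ (1.30), was the 1 gene at least 2-fold higher. On day 6, 8 of the 12 were at least 2-fold lower in D6T- than in D6T+ (9.47% of all genes), led by Bgn at -3.66 and by Thbs1, thrombospondin 1, an activator of latent TGF-beta, at -3.37. Fbn2, which encodes a fibrillin of the matrix, was higher by 1.49. In iPSCs against mESCs, Thbs1 was higher by 3.35 and Mmp14, a membrane protease, by 2.16, while Mmp2, a secreted protease, stood at -1.72. In all, 3 of the 12 were at least 2-fold higher there (6.79% of all genes) and 1 lower (7.41%).

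All 16 Smads and intracellular regulators were kept, and they differed in both directions. In D16S+ against D0, 4 were at least 2-fold higher (20.0% of all genes) and 4 lower (20.9%), with a median of -0.01. Foxh1, a partner of SMAD2 and SMAD3 that reads activin and Nodal signals, was at 0.0757 FPKM in D0, 58.5 in D16S+ and 8.63 in D16S-, a difference of 5.79 for D16S+ against D0. Tgif2, a repressor of SMAD activity, was higher by 2.33. Pmepa1, a feedback inhibitor, was at 80.9 FPKM in D0, 14.4 in D3, 2.00 in D6T- and 8.88 in D16S+, and Fkbp1a, which holds the type I receptor inactive, stood at -1.44 in D16S+ against D0. In D12S+ against D12S-, where Smad7 was at 0.72, 3 genes were at least 2-fold higher (4.79% of all genes), Foxh1 by 2.70, Skil by 1.29 and Smad6 by 1.01. Skil and Smad6 encode, like Smad7, negative regulators of SMAD signalling. No gene of the list passed 2-fold in D9T- against D9T+ or in iPSCs against mESCs.

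Of 19 genes known as targets of TGF-beta, all kept, 13 were at least 2-fold lower in D6T- than in D6T+ (9.47% of all genes), 9 in D9T- than in D9T+ (6.45%), 3 in D12S+ than in D12S- (3.03%) and 12 in D16S+ than in D16S- (15.2%). None was at least 2-fold higher in those 4 comparisons. Tagln, an actin-binding protein of smooth muscle, was at 10.4 FPKM in D6T- against 208 in D6T+ (-4.20), and Acta2, smooth muscle actin, at 14.2 against 166 FPKM (-3.46). On day 9 Col1a1, which is also one of the fibroblast markers, was at -3.20. On day 16 the leading genes were Col1a1 at -3.60 and Acta2 at -3.04. Targets of this kind respond to other signals too, such as serum.

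In D3 against D0, 2 targets were at least 2-fold higher (5.76% of all genes) and 7 lower (8.67%). Ctgf, connective tissue growth factor, was at 31.3 FPKM in D0 and 115 in D3 (1.85). Tgfbi was at 31.3 and 1.25 FPKM (-3.84) and Postn, periostin, at 74.6 and 16.1 FPKM (-2.15). In D16S+ against D0, 15 were lower (20.9% of all genes) and 2 higher (20.0%), with a median of -3.23. In D16S- against D0, 11 were lower (11.4%) and 3 higher (12.8%), with a median of -1.56. The lowest were Col1a1 at -7.64 and Acta2 at -6.26 in D16S+, and Postn at -5.31 and Col1a1 at -4.04 in D16S-. Bhlhe40 and Klf10, early response genes, were higher in both, by 1.42 and 1.49 in D16S+ and by 2.97 and 2.06 in D16S-. In iPSCs against mESCs, 8 targets were higher (6.79% of all genes) and 3 lower (7.41%). Acta2 was at 152 FPKM in iPSCs and 10.4 in mESCs (3.75), and Cyr61 at 196 and 18.3 FPKM (3.35). Bhlhe40, at -2.30, and Klf10, at -1.72, were lower in iPSCs.

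**Figure D5:**
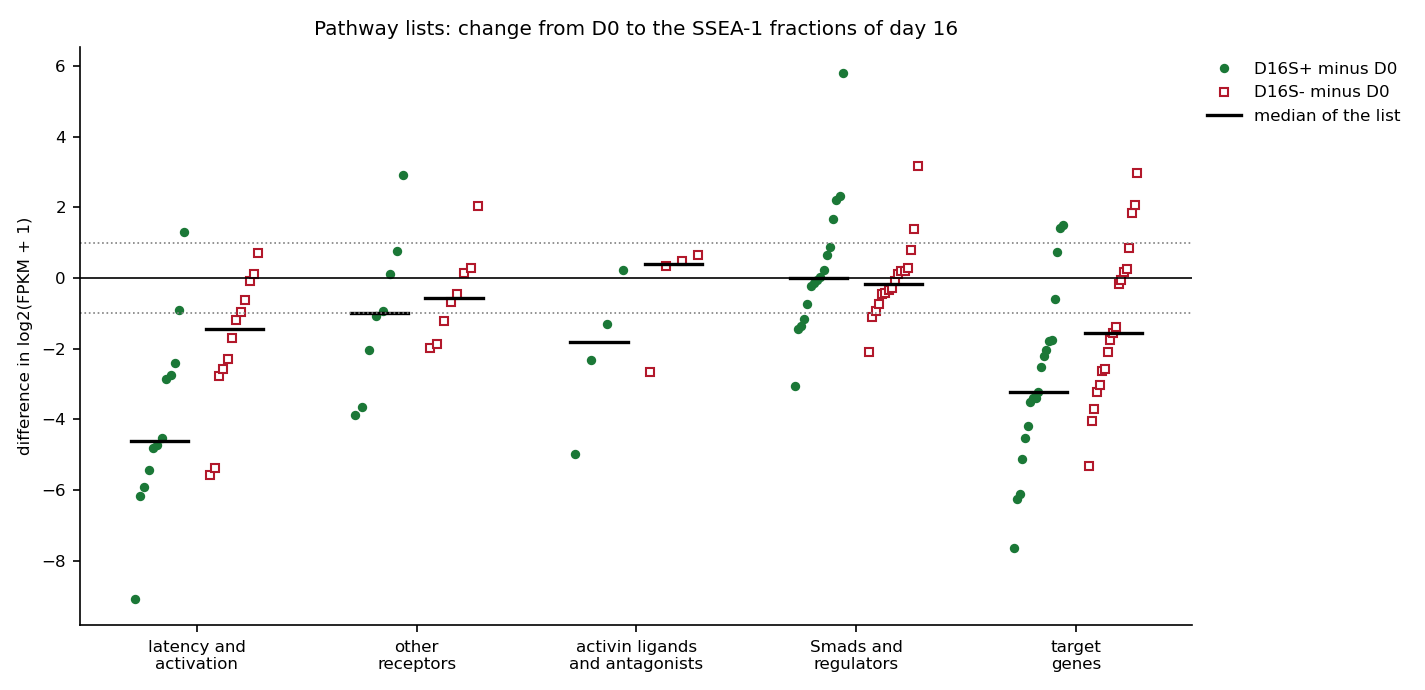
Difference in log2(FPKM + 1) from D0 to D16S+ (filled circles) and to D16S- (open squares) for each kept gene of the 5 pathway lists, in order of size, with the list median as a bar and dotted lines at 2-fold. The median of the latency list is -4.62 in D16S+ and that of the target list -3.23, while the Smads and regulators centre on -0.01.

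Across the 12 libraries, the levels of the 9 genes were set against each other on the log2 scale. The libraries share starting cells and a time course, so Pearson's r is a description here. Of 36 pairs, the highest were Tgfb1 with Ltbp2 (r = 0.95), Tgfbr2 with Ltbp1 (0.94) and Tgfb3 with Inhba (0.92), and the lowest was Tgfbr1 with Smad7 (-0.37). The Tgfb1 and Ltbp1 levels, ligand and its store, gave 0.37. Among 10805 genes with at least 5 FPKM in at least 1 library, the patterns most like Tgfb1 were those of Creb3l1 (0.98), Smurf1 (0.98) and Chmp4b (0.97), and those most like Tgfb3 were Syde1 (0.99), Mical2 (0.98) and Osbpl5 (0.98). Tgfbr2 was closest to Ccl2, Thbs2 and Tnfrsf1a, each with 0.99. Ltbp1 was closest to Gpc6 (0.99), Irak4 (0.99) and Pdzrn3 (0.98), and Ltbp2 to Sdc3 (0.99), Dlgap4 (0.99) and B4galt7 (0.98). For Inhba the nearest were Procr, Fam219a and Thbs1, each with 0.97. Lower values were found for Tgfb2, with Ipo13 (0.92), Eme2 (0.91) and Rnd3 (0.89), for Smad7, with Lpin3 (0.88), Azin2 (0.86) and Cd97 (0.84), and for Tgfbr1, with Impact (0.85), Pfkfb2 (0.84) and Nnt (0.82). All of these genes came from a search among 10805 genes over 12 libraries, and how high r gets between unrelated genes was not tested. Tgfb2 and Tgfbr1 reached at most 2.95 and 2.10 FPKM, under the 5 FPKM asked of the searched genes. Their intervals reached 0 in all 12 libraries.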

How the data were processed

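PolyA RNA was sequenced from 12 conditions, 1 library each, grouped by the titles in the labels. The authors mapped reads to mm9 with STAR, removed reads with more than 2 mismatches or more than 1 locus, and estimated expression with Cuffdiff; the deposited values are FPKM with an interval. Versions, annotation and library scaling are not given in the sources used here. A further 12 columns of status words were not used. Total fragments are unknown. Depth relative to D0, from the steps of values under 0.5 FPKM, was 0.967 (D9T+) to 1.56 (D6T-), with 1.51 in D16S+ and 0.999 in D16S-, and total FPKM 484968 (D16S+) to 648264 (D0).

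Differences are in log2(FPKM + 1), which understates low genes, over genes with at least 1 FPKM in at least 1 library. Counts past 2-fold were taken without a test (Python 3.11.15, pandas 2.3.3), with functions tested on simulated data. Another pseudocount, 2 scalings, another threshold and another filter were tried. The genes and lists were chosen with earlier results of these data known. All genes of the 9, of the receptor list and of the activin list are named. Of other lists, the 2 largest differences past 2-fold in each direction of a comparison described were named, and the 3 genes most alike per gene; 1 gene that met this rule is not reported here. Positions are from GENCODE M1 (mm9).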

Additional observations from a re-analysis of the deposited data

Results flagged for a closer look

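Smad7 differed between the sorted fractions in opposite directions on different days. It was lower in the Thy-1- fraction by -0.98 on day 6 and -1.95 on day 9, and higher in the SSEA-1+ fraction by 0.72 on day 12, on the log2(FPKM + 1) scale. Each value compares 1 library with 1 library, the difference between days was not tested, and the sorting marker changed between days 9 and 12, so day and marker cannot be told apart.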

How the results depend on the processing

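Counts of the 9 genes past 2-fold were recomputed under 5 alternatives, and 77 of 90 counts stayed within 1.5 times. In D3 against D0, 1 gene instead of 0 was higher with a pseudocount of 0.1, with libraries scaled to the same total FPKM and with scaling by the median of ratios. Scaling to the same total FPKM gave 1 lower gene instead of 2 in D3 against D0, 2 instead of 4 in D12S+ against D12S-, and 0 instead of 1 in iPSCs against mESCs. A fold threshold of 4 left 0 lower genes in D3 against D0, 3 in D6T- against D6T+, 0 in D12S+ against D12S-, 4 in D16S+ against D16S-, 1 in D16S- against D0, and 0 higher and 0 lower in iPSCs against mESCs. No called difference changed sign. Small differences that did were Tgfb2 in D16S- against D0 (-0.08 to 0.13), and Tgfbr1 in D16S+ (-0.00 to 0.24) and in iPSCs (-0.06 to 0.07) against D0 with the same total FPKM, and Tgfbr1 in D16S+ also with the median of ratios (0.02). Of 243 differences of the 9 genes, 13 moved, all with a pseudocount of 0.1 and to larger sizes (Ltbp2 on day 6 to -2.94). That scaling moved the median of all genes by 0.14 in D3, 0.16 in iPSCs, 0.19 in D16S- and 0.30 in D16S+ against D0. Of 270 counts over the pathway lists, 20 moved. With a pseudocount of 0.1, 3 of 3 most similar genes were kept for Tgfb1, Tgfbr1 and Smad7, and 1 of 3 for Tgfb3, Inhba and Ltbp1. No paired analysis was possible because each condition had 1 library. Depth limits genes near 1 FPKM most, Tgfb2 and Tgfbr1 among them.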
